A study of Mus musculus with 33 samples.

Results

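The cytosolic ribosomal protein genes were taken by name: every gene whose symbol begins with Rpl or Rps followed by a digit, with Rpsa, Rplp0, Rplp1 and Rplp2, and without pseudogenes marked -ps and the Rps6k kinases. The rule found 86 genes of the 32285 in the count tables, 52 with large subunit (Rpl) and 34 with small subunit (Rps) symbols, on 19 chromosomes. They were followed as unique molecular identifiers (UMIs, each one captured mRNA molecule) in single mouse cells from a study of metastatic niches labelled with SAMENT, in which cancer cells tag their neighbours with biotin. In the intracardiac series, bone, brain, liver and lung were each split by cell sorting into a biotin positive and a biotin negative fraction, with 4 samples per tissue and fraction, all from mice given an intracardiac injection. In the second series, bone of mice given an injection labelled IIA was sorted the same way into 6 positive and 6 negative samples, pooled in one library and separated here by their hashtags. The authors' deposited tag table and the count table name the hashtags with different prefixes, and they were matched by number alone, so every IIA value by sort or sample assumes this match. All mice received the labelling substrate overnight; the sources used here give no strain, sex, age or injected cell line and do not say whether numbered samples are separate animals, so errors below measure the spread between samples. The intracardiac libraries are 3′ and the IIA library 5′ per the labels, so the series are set side by side and never compared by a test.

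Ribosomal proteins and ribosomal RNA form the small subunit, which decodes the mRNA, and the large subunit, which joins the amino acids. Most ribosomal protein mRNAs begin with a run of pyrimidines, the TOP motif, through which mTOR and the protein Larp1 control their translation together. A neutrophil grows through a proliferating granulocyte precursor and an immature stage that fills the granules, and ends as a short-lived cell that has stopped dividing.

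After filtering, 55366 intracardiac and 22362 IIA cells were kept. The members took 72409048 of 424446080 UMIs, 17.1%, in the intracardiac cells and 13.5% in the IIA cells. Over all intracardiac cells together, 79 members were found in over 50% of cells. Those found in few cells were mostly look-alikes. Rpl10l, a retrocopy of Rpl10 known from testis, had 0 UMIs in both series. Rpl39l was found in 0.596% of intracardiac cells and Rpl3l, the Rpl3 paralog known from heart and skeletal muscle, in 5.32%. Rps19bp1, found in 12.4%, fits the naming rule but is an Rps19-binding protein and no part of the ribosome. Cells were grouped into classes by clustering with no member among the 2000 variable genes; each class was named from marker genes, and every name below means cells like that type. The names went with the labelled tissues: 451 of 451 microglia were in brain samples, 98.8% of alveolar macrophages in lung, and 83.0% of granulocyte precursors in bone. Liver positive replicate 4 held 94 kept cells, the fewest of all samples. Total counts ran from 497940 to 44874528 UMIs per sample, and 341 of 56724 distinct intracardiac cell barcodes occurred in more than 1 library.

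The starts of the genes the results turn on are printed first, because a TOP motif, where a gene has one, lies at the start of the transcript. Each line gives 30 bases of the gene's strand, 5 before and 25 after the RefSeq start on GRCm38.p6; capitals mark the pyrimidine run CTTTC, a run often found in TOP starts, which 3 of the 7 windows hold. Rps9, Rps27, its near copy Rps27rt and Rpl37 were lower in immature than in mature neutrophils, Rpl12 and Rps18 are among the members with large fold changes over mature neutrophils, and Rpl3l is the paralog that goes the other way.
Rps9 (chr7:3704036-3704065, plus strand): ctctctttgtctcgggcctgagttcgtagg
Rps27 (chr3:90213624-90213653, minus strand): tcgctcCTTTCcggcggtgacgacctccct
Rps27rt (chr9:114982715-114982744, minus strand): ccttgCTTTCcggcggtgacgacctcccta
Rpl37 (chr15:5116608-5116637, plus strand): gcggaagcttatccacaggaagtggcgggg
Rpl12 (chr2:32961707-32961736, plus strand): gatccgtcttttcggCTTTCggctcggagg
Rps18 (chr17:33955641-33955670, minus strand): ccgctctctcttccacaggaggcctacacg
Rpl3l (chr17:24727821-24727850, plus strand): gctctgtcatttgacctctggtgcctggtg

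A start window was held for 66 of the 86 members, 78 windows in all because some genes have more than 1 start. CTTTC on the gene's strand was in 15 of the 78 windows, 19.2%, against 3.59% of all 32851 windows; on the opposite strand the shares were 5.13% and 3.69%. Over 300 bases, CGGAAG, the core of ETS factor sites, was on either strand in 60.3% of member windows and in 16.9% of all windows. A match is a description of letters, and no match says only that these letters are not in this window. In the printed set Rps27 and Rpl12 both hold CTTTC, and in granulocyte precursors over mature neutrophils their log2 fold changes were 0.25 and 4.13. The 300-base windows of Rps27 and Rps27rt share a run of 38 bases. It lies near the start, while the intracardiac libraries are 3′, and the rest of the transcripts was not compared. Whether reads were split between these genes was not tested, so both values are uncertain.

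The share of UMIs from the members set the cell classes far apart. In the biotin negative intracardiac samples, T cells gave 36.2% ± 2.29 (SD, n = 16 samples), B cells 34.1% ± 2.59 (n = 16) and conventional dendritic cells 30.2% ± 2.15 (n = 16). NK cells followed with 28.4% ± 2.94 (n = 16), plasmacytoid dendritic cells with 27.7% ± 2.34 (n = 10), granulocyte precursors with 24.2% ± 0.838 (n = 6), monocytes with 23.0% ± 0.846 (n = 16) and macrophages with 20.4% ± 3.96 (n = 7). Neighbours in this upper part of the order overlapped in their sample ranges. Plasma cells, which make secreted antibody, gave 13.9% ± 2.38 (n = 8), and endothelial cells ranged from 10.5% to 14.6% (n = 5). In the positive sort, where most of them were, alveolar macrophages gave 14.0% ± 1.16 and microglia 15.7% ± 1.38 (n = 4 samples each).

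Neutrophils stood at the bottom. Immature neutrophils gave 6.75% ± 1.38 (n = 10), from 4.66% to 9.35%, and mature neutrophils 3.71% ± 0.443 (n = 16), with a lowest sample of 3.01%, a median of 3.76% and a highest of 4.33%. Both steps, from endothelial cells to immature neutrophils and from immature to mature neutrophils, had no overlap between samples. Depth did not follow the share: the median UMIs per cell had a median over samples of 3747 in mature neutrophils and 2178.5 in B cells. In the IIA bone the order was alike at its lower end, with granulocyte precursors at 19.0% ± 1.54, B cells at 17.8% ± 1.34, monocytes at 15.3% ± 0.528, immature neutrophils at 4.44% ± 0.178 and mature neutrophils at 3.68% ± 0.364 (n = 6 each). There the highest class was fibroblasts or stromal cells, 25.8% ± 2.65 (n = 6), and T cells gave 21.0% ± 0.607. The IIA granulocyte precursor class joined a cluster of 1411 cells, led by Prtn3, Elane and Mpo, with another of 597 cells. The latter was led by Cacnb2, Glis3 and St7 and held 4 of the precursor markers. Over samples of both sorts, their shares were 20.0% ± 1.43 (n = 12) and 12.4% ± 4.32 (n = 8). Large and small subunit genes contributed 1.80% and 1.91% in intracardiac mature neutrophils and 12.9% and 11.3% in granulocyte precursors.

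**Figure D1:**
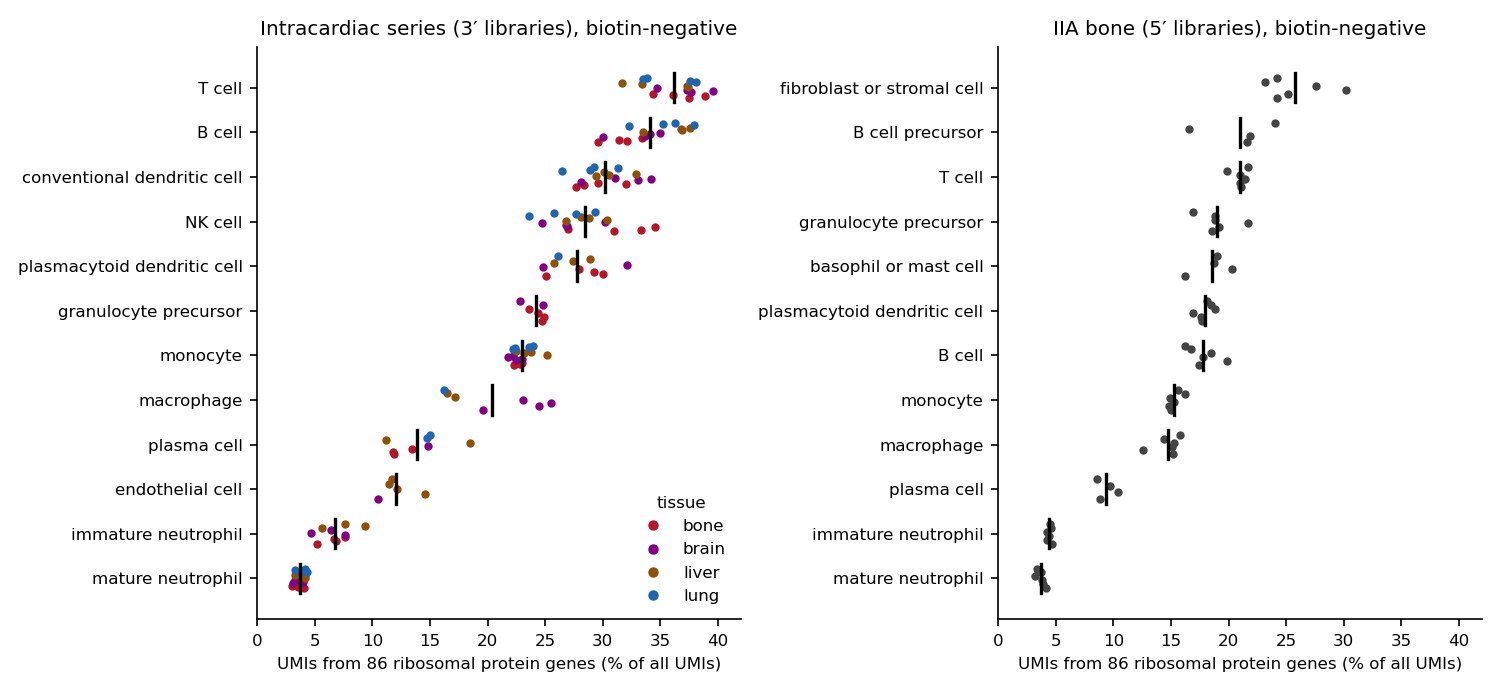
Share of UMIs from the 86 ribosomal protein genes (x axis, % of all UMIs) in each cell class of the biotin negative samples; each point is a sample with at least 10 cells of the class, coloured by tissue in the intracardiac panel, and each bar a mean. Mature neutrophils lie at 3.01% to 4.33% in the intracardiac samples, under every sample of the other classes.

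Further gene sets were read beside the family: 38 ribosome biogenesis genes, which make and assemble the subunits, and 78 mitochondrial ribosomal protein genes, whose products serve the separate mitochondrial ribosome. Biogenesis genes took 0.431% ± 0.0806 of UMIs in granulocyte precursors (n = 6), 0.348% in T cells, 0.199% in monocytes, 0.0512% in immature and 0.0333% ± 0.00659 in mature neutrophils (n = 16). Mitochondrial ribosomal protein genes took 0.686%, 0.398%, 0.559%, 0.225% and 0.181% in the same order. Mature neutrophils thus had the lowest level of all 3 sets among these 5 classes in the intracardiac series. In the IIA series biogenesis genes were at 0.0825% ± 0.0115 in mature and 0.0674% ± 0.00400 in immature neutrophils (n = 6 each).

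Each member was then tested between classes of the same biotin negative samples, with the sample as a block. The 5 comparisons share their mature neutrophil samples, so they are not independent of each other. In edgeR's quasi-likelihood test, 82 of 84 members tested were higher in B cells than in mature neutrophils, with a median log2 fold change of 2.47 against -0.00 over all genes tested, of which 42.8% were called higher. For T cells 81 of 84 were higher, with a median of 2.59 (44.6% of all genes). Monocytes had 83 of 84 higher with a median of 1.97 (45.1% of all genes), and granulocyte precursors 80 of 84 with a median of 2.34 (44.2% of all genes, n = 6 samples of each class). Immature neutrophils, compared in 10 samples, had 77 of 84 higher, with a smaller median of 1.01 (36.1% of all genes).

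These fold changes stand relative to the other genes of a cell. With library size as the only scaling, the median of all genes moved to 0.88 in B cells, 0.94 in T cells, 0.95 in monocytes and 0.76 in granulocyte precursors. All genes were then called higher in 65.0%, 65.9%, 69.5% and 57.3%, and 83 of 84 members in each of these 4 comparisons. In immature neutrophils that median was 0.03, and 78 members were higher beside 38.2% of all genes. Free RNA in droplets was not removed from any class. Below, levels are per 10000 UMIs without further scaling, and fold changes use TMM scaling unless library size is named.

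The members that differed most encode large and small subunit proteins alike. Rpl12, a protein of the stalk base where elongation factors bind, stood in mature neutrophils at 0.638 in the lowest sample and 1.26 in the highest, with a mean of 0.896 ± 0.185 per 10000 UMIs (n = 16). In T cells the mean was 62.7 and in B cells 48.9, and no sample of either class overlapped the neutrophils. Rpl12 rose with log2 fold changes of 5.29 ± 0.09 (SE) in T cells, 4.92 ± 0.08 in B cells, 3.31 ± 0.07 in monocytes and 4.13 ± 0.11 in granulocyte precursors over mature neutrophils, each with an edgeR adjusted p of 1.02e-14 or less.

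Rpl3, which lies near the peptidyl transferase centre, stood at 0.506 ± 0.126 per 10000 UMIs in mature neutrophils, from 0.340 to 0.724. It stood at 3.29 ± 1.30 in immature neutrophils (n = 10) and at 19.6 ± 3.68 in granulocyte precursors (n = 6). The log2 fold change of granulocyte precursors over mature neutrophils was 4.79 ± 0.13 (edgeR adjusted p = 1.38e-14). That of immature neutrophils was 2.64 ± 0.19 (edgeR adjusted p = 6.5e-10). Rps18, of the head of the small subunit, had a log2 fold change of 4.28 in granulocyte precursors and 4.47 in T cells. Rpl10a, of the large subunit, had 4.37 in B cells and 3.98 in monocytes. Rpsa, the laminin receptor precursor of the small subunit, had 3.51 in granulocyte precursors and 3.70 in T cells.

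Other members moved less. Rps6, the small subunit protein that S6 kinase phosphorylates, had log2 fold changes of 2.12 in B cells, 2.43 in T cells, 2.01 in monocytes, 2.83 in granulocyte precursors and 1.31 in immature neutrophils. Among the 3 stalk proteins, which recruit the translational GTPases, Rplp0 had 2.51, Rplp1 2.95 and Rplp2 2.22 in granulocyte precursors. All 3 passed the test in each of the 5 comparisons.

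Some members differed less than the rest, or only from some classes. Rps9, a small subunit protein of the mRNA entry region, had 30.9 ± 4.40 UMIs per 10000 in mature neutrophils (n = 16), with a lowest sample of 23.2, a median of 30.9 and a highest of 39.3. Granulocyte precursors had 34.1 ± 2.53 (n = 6) and immature neutrophils 24.0 ± 2.44 (n = 10), and both ranges overlapped that of the mature cells. Monocytes had 62.4, B cells 59.5 and T cells 53.9, all of whose samples lay above the neutrophils. The log2 fold change of Rps9 was 0.08 ± 0.07 in B cells and -0.05 ± 0.07 in T cells, neither passing the edgeR test. In granulocyte precursors it was -0.38 ± 0.09 with TMM scaling (edgeR adjusted p = 0.000792) and 0.32 with library size alone, so the direction there rests on the scaling; with library size alone it was 0.98 in B cells and 0.84 in T cells.

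Rps27a, made as a fusion of ubiquitin and a small subunit protein, stood at 21.0 per 10000 UMIs in mature neutrophils, 23.5 in immature neutrophils and 69.8 in granulocyte precursors. Its log2 fold change in immature neutrophils was 0.06 ± 0.09 and did not pass. Its gene overlaps Clhc1 on the opposite strand. Rpl37, a small zinc-finger protein of the large subunit, stood at 12.2 in mature and 8.34 in immature neutrophils. Rps27, another zinc-finger protein, stood at 10.4 ± 3.28 in mature neutrophils, 6.90 ± 2.09 in immature neutrophils, 15.2 ± 5.14 in granulocyte precursors and 82.4 ± 19.3 in B cells. In immature neutrophils 5 members were called lower than in mature neutrophils, beside 37.2% of all genes: Rpl3l, Rps27rt at -0.64, Rps27 at -0.49, Rpl37 at -0.46 and Rps9 at -0.36.

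The levels of some members, Rps27 and Rpl37 among them, also moved with the replicate number. In mature neutrophils of the negative sort, Rps27 stood at 5.43, 14.0, 9.70 and 7.35 per 10000 UMIs in brain replicates 1 to 4. The 4 liver samples had 7.80, 16.5, 10.7 and 9.18, and the 4 lung samples 10.6, 17.0, 11.9 and 12.7. Bone had 8.90, 8.77, 8.27 and 7.58. The second replicate was thus the highest in brain, liver and lung. In bone it was not on this scale, though with TMM scaling it was the highest there too, with 744, 996, 947 and 779 CPM (counts scaled to equal library totals). Rpl37 stood at 6.86, 17.7, 12.8 and 8.83 per 10000 UMIs in the brain samples and at 8.97, 11.5, 10.5 and 9.73 in those of bone. It ran from 8.85 to 18.1 in liver samples and from 10.4 to 19.0 in lung samples, and the second replicate was the highest in all 4 tissues. Other members, such as Rps29, Rpl37a, Rpl41, Rpl38 and Rpl39, were also highest in the second replicate of both bone and lung with TMM scaling. What the shared number stands for is not stated, and its part in the level was not tested.

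**Figure D2:**
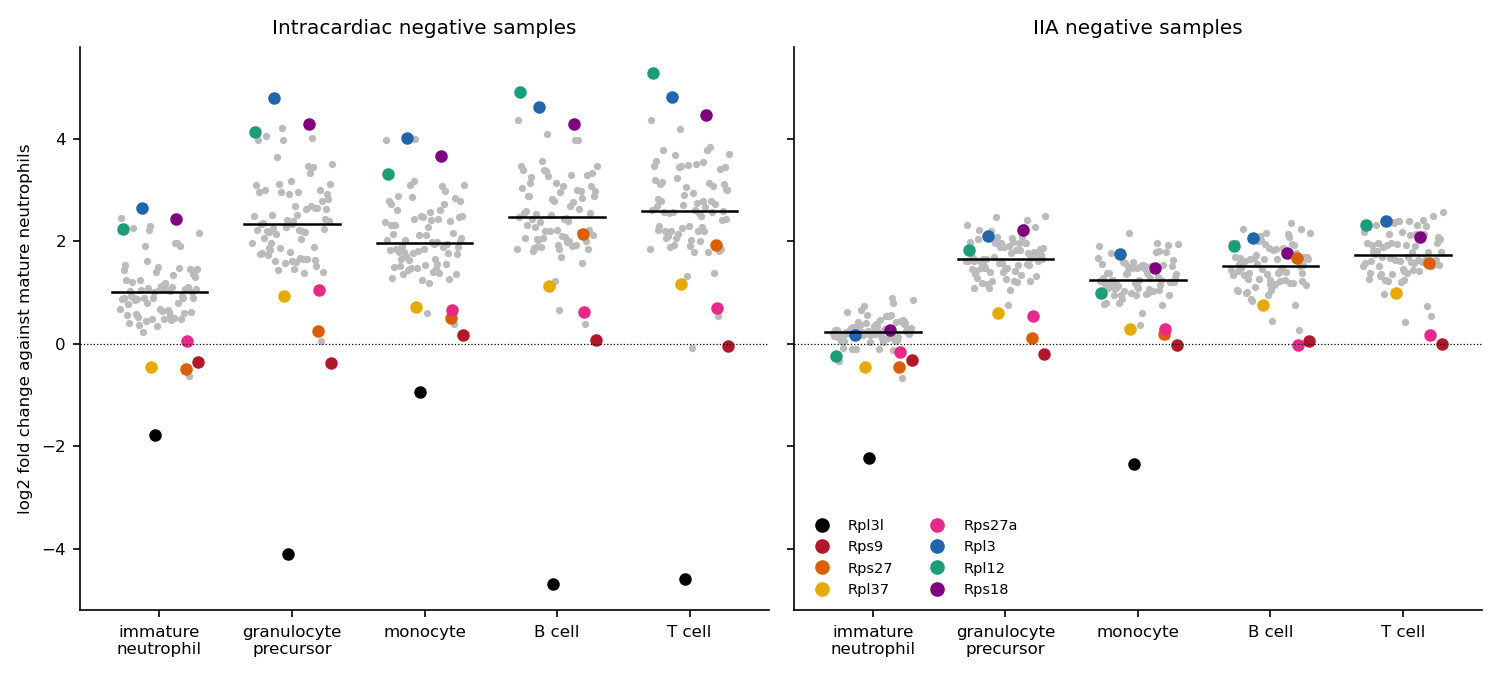
Log2 fold change of each ribosomal protein gene tested (y axis; points, 8 genes coloured, lines at the median) in 5 cell classes (x axis) over mature neutrophils of the biotin negative samples, from the intracardiac and IIA series. Nearly all points lie above 0 in every class but immature neutrophils of the IIA series, where the median was 0.22.

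The IIA negative samples, an experiment of its own from a single pooled library, were tested the same way after the intracardiac values had been seen (6 samples of each class). There 79 of 83 members were higher in B cells (39.0% of all genes), 79 of 82 in T cells (40.9%), 80 of 84 in monocytes (43.4%) and 80 of 82 in granulocyte precursors (40.7%). The medians were smaller, at 1.52, 1.72, 1.24 and 1.65. No member was called lower in B cells, T cells or granulocyte precursors (34.6%, 37.0% and 40.6% of all genes), where Rpl3l did not pass the low-count filter. In monocytes 1 was lower (36.6% of all genes), Rpl3l at -2.34 ± 0.29 (edgeR adjusted p = 3.01e-07). Immature neutrophils had 54 of 84 members higher (33.2% of all genes) and 8 lower (31.7%), with a median of 0.22 beside 0.08 for all genes. Rpl12, at 2.23 ± 0.14 in immature over mature neutrophils of the intracardiac samples, was at -0.24 in the IIA samples (edgeR adjusted p = 0.00617). Rps9 again stood near 0, at 0.05 in B cells and -0.20 in granulocyte precursors.

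Because members differed so unequally, the make-up of the family's own UMIs was set out; this share does not depend on the scaling. In intracardiac mature neutrophils 18 members made up 50% of the family's UMIs, and the top 5 (Rps9, Rps27a, Rps29, Rpl37 and Rpl41) 24.1%. In granulocyte precursors 28 members made up 50%, and the top 5 held 12.7%. The counts were 27 in T cells, 26 in B cells, 27 in monocytes and 26 in immature neutrophils. Rps9 alone held 8.34% ± 0.736 of the family's UMIs in mature neutrophils (n = 16), 3.68% ± 0.768 in immature neutrophils (n = 10) and 1.41% ± 0.107 in granulocyte precursors (n = 6). Rps27a held 5.69%, 3.55% and 2.88% in that order. Rpl3 went the other way, with 0.136%, 0.473% and 0.813%, and so did Rpl12, with 0.242%, 0.658% and 1.01%.

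In the IIA samples, mature neutrophils again had Rps9 first, with 6.26% ± 0.587 of the family's UMIs against 4.42% in immature neutrophils and 1.85% in granulocyte precursors (n = 6 each). Rps27a held 4.66%, 3.68% and 2.31%. Rpl12 held 0.521% in mature neutrophils, 0.387% in immature neutrophils and 0.631% in granulocyte precursors, and Rpl3 held 0.377%, 0.371% and 0.548%. Rpl12 was thus lower in the immature than in the mature cells there, unlike in the intracardiac series, and for Rpl3 those 2 stages differed by less than their spread. The number of members making up 50% was 19 in mature neutrophils, 21 in immature neutrophils, B cells and T cells, and 23 in monocytes and granulocyte precursors.

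**Figure D3:**
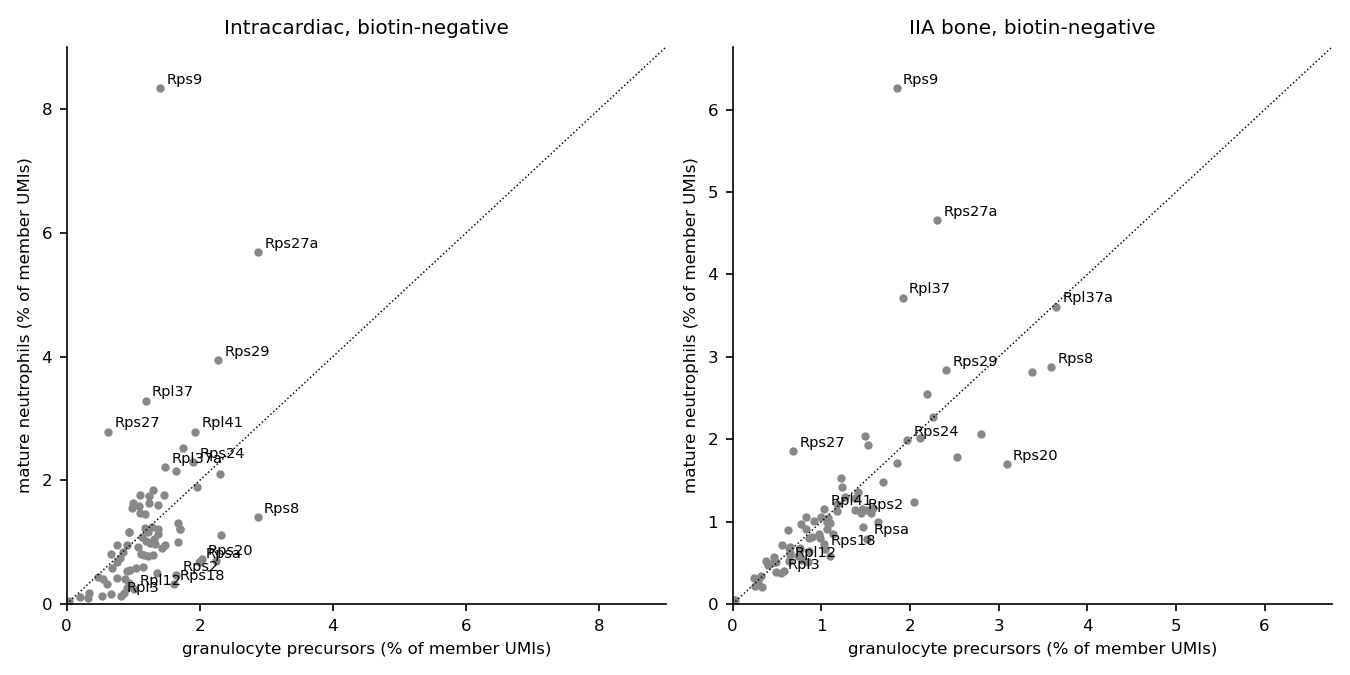
Share of each gene in the family's own UMIs in granulocyte precursors (x axis, %) and mature neutrophils (y axis, %) of the biotin negative samples, in the intracardiac and IIA series; each point is a gene and the line marks equal shares. Rps9, Rps27a and Rpl37 lie far above the line in both series.

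Rpl3l was the member that went against the rest. Its level in mature neutrophils was 0.145 ± 0.0382 per 10000 UMIs (n = 16; lowest 0.0793, median 0.132, highest 0.219), from 898 UMIs in 12700 cells. Monocytes had 0.143 ± 0.0724, immature neutrophils 0.0552 ± 0.0451, granulocyte precursors 0.0151 ± 0.00962, B cells 0.0132 ± 0.0197 and T cells 0.0105 ± 0.0199. Only 11 UMIs were seen in 4473 B cells and 13 in 4084 T cells; free RNA was not removed, and its part in these few UMIs was not tested. The log2 fold change over mature neutrophils was -4.70 ± 0.33 in B cells (edgeR adjusted p = 8.79e-13), the only member called lower there, beside 42.5% of all genes. It was -4.59 ± 0.25 in T cells (edgeR adjusted p = 1.98e-14; 40.3% of all genes lower), -4.11 ± 0.27 in granulocyte precursors (41.1% of all genes lower) and -1.78 ± 0.20 in immature neutrophils. With library size alone these 4 stayed negative, at -3.87, -3.83, -3.43 and -1.72. In monocytes the value was -0.95 ± 0.19 with TMM scaling (edgeR adjusted p = 8.66e-05; 40.5% of all genes lower) and -0.09 with library size alone (edgeR adjusted p = 0.669), so the call in monocytes rests on the scaling. In B and T cells the call was lost where leaving out replicates put Rpl3l under the low-count filter.

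As a share of the pair Rpl3l and Rpl3, which no scaling touches, Rpl3l made up 22.8% ± 6.11 in mature neutrophils (n = 14 samples with 50 or more UMIs of the pair), from 14.0% to 34.5%. Immature neutrophils had 1.30% ± 0.833 (n = 9), monocytes 1.09% ± 0.684 (n = 16), granulocyte precursors 0.0805%, B cells 0.0684% and T cells 0.0472%. No sample of another class reached the lowest mature neutrophil sample. The share depends on Rpl3 as well as on Rpl3l. Rpl3 was far lower in mature neutrophils than in immature neutrophils or granulocyte precursors, and monocytes had a like Rpl3l level. In the IIA series the share was 11.7% ± 3.95 in mature neutrophils (n = 6), from 6.87% to 16.8%, and 2.28% ± 0.818 in immature neutrophils, from 1.02% to 3.45%. The 8 intracardiac plasma cell samples had 0 Rpl3l UMIs. Rpl3l lies on chr17:24727820-24736143 of GRCm38 and overlaps no other gene in the annotation used here.

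**Figure D4:**
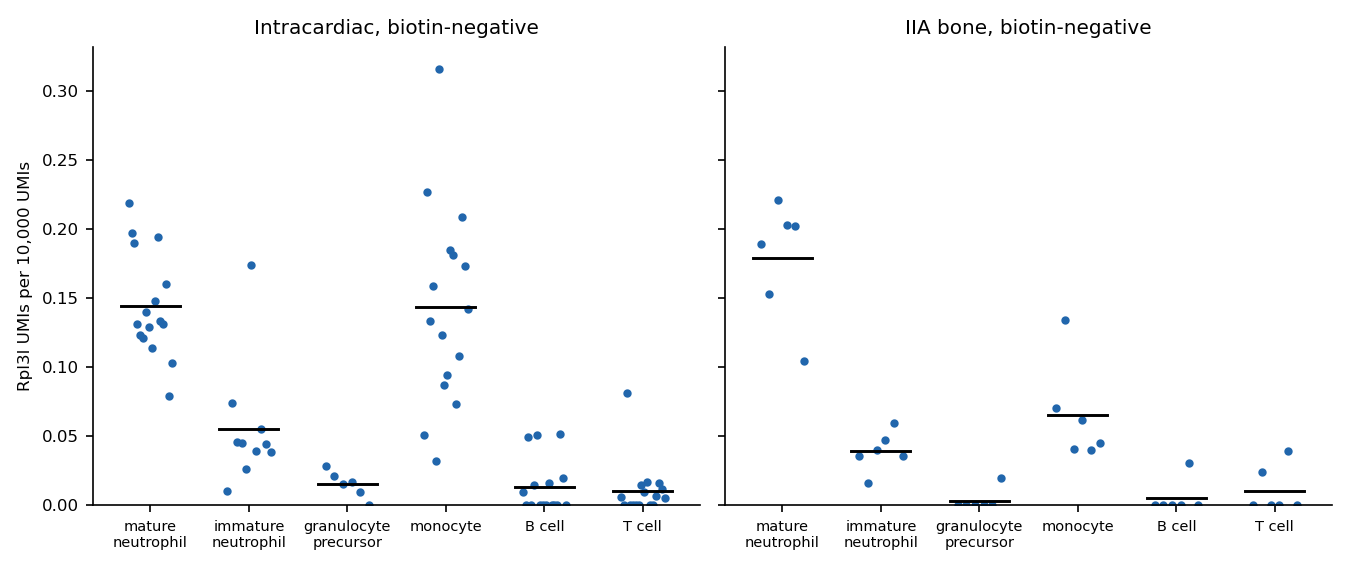
Rpl3l level (y axis, UMIs per 10000 UMIs) in 6 cell classes (x axis) of the biotin negative samples, in the intracardiac and IIA series; each point is a sample and each line a mean. Mature neutrophils and monocytes are highest in the intracardiac samples, with means of 0.145 and 0.143, and in the IIA samples mature neutrophils, at 0.179, lie above monocytes, at 0.0650, with overlap.

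The paralogs Rps27l, Rpl36al and Rpl22l1 were set against their partners as shares of the pair. Rps27l, a p53-responsive copy of Rps27, made up 25.5% ± 4.62 of the pair in granulocyte precursors (n = 6), 21.6% ± 5.47 in plasma cells (n = 8), 11.9% ± 2.53 in monocytes (n = 16), 1.65% ± 0.487 in T cells (n = 16) and 1.28% ± 0.374 in B cells (n = 16). The lymphocyte samples all lay under the granulocyte precursors and plasma cells, and in the IIA series the values were 27.3%, 30.7%, 26.0%, 5.35% and 4.26%. Rpl36al, a copy of Rpl36a without introns, was highest in plasma cells at 70.5% ± 2.45 (n = 8) and next in monocytes at 60.2% ± 2.19 (n = 16), above T cells at 34.1% ± 3.02 and B cells at 32.7% ± 3.10. In the IIA series these were 67.2%, 51.9%, 29.3% and 32.0%. Rpl36al overlaps Gm49383 on the same strand. Rpl22l1, which can replace Rpl22 in the ribosome, ranged less: 32.1% ± 3.03 in immature neutrophils, 30.8% in NK cells, 27.3% in T cells, 21.1% in B cells, 19.6% ± 3.81 in mature neutrophils and 12.7% ± 2.97 in plasma cells. The order was not the same in the IIA series, with 27.3% in immature neutrophils, 22.0% ± 2.06 in mature neutrophils, 16.6% in T cells, 13.5% in B cells and 8.06% in plasma cells.

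The second question was whether the niche label changed the family. All kept cells of a sample were summed, so that a change in the mix of classes and a change within cells cannot be told apart. In intracardiac bone the share of UMIs was 15.1%, 16.9%, 24.3% and 17.5% in positive replicates and ran from 12.5% to 21.4% in negative ones, which overlapped. Brain gave 17.1% ± 2.80 in positive and 18.3% ± 4.16 in negative samples, which overlapped as well. Liver gave 14.8% ± 3.81 against 19.9% ± 5.02, lower in the positive sample of 4 of 4 numbers, and the ranges overlapped. Lung gave 14.5%, 15.6%, 12.7% and 15.2% in positive and 22.9%, 13.9%, 26.7% and 17.9% in negative samples, again with overlap. Per gene, edgeR called 0 members of 85 in bone (0% of all genes), 0 of 85 in brain (2.88% of all genes higher and 0.181% lower) and 0 of 84 in liver (0% of all genes). At an unadjusted p under 0.05 there were 1, 11 and 32 members in the 3 tissues, all lower in the positive sort, beside 7.84%, 21.0% and 13.3% of all genes in either direction. DESeq2 called 0 members in bone (0.215% of all genes higher and 0.207% lower) and 0 in liver (2.69% and 0.945%). It called 7 in brain, all lower (3.17% of all genes), among them Rps9 at -0.63 and Rps27a at -0.60. A count of 0 does not show that the sorts are equal.

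In lung, 44 of 85 members were lower in the positive sort by edgeR, beside 6.80% of all genes, and 0 were higher, beside 11.5%. The member median log2 fold change was -0.69 and that of all genes -0.04. The 3 named by the rule were Rps27 at -1.12 ± 0.24 (edgeR adjusted p = 0.0143), Rpl12 at -1.03 ± 0.29 (edgeR adjusted p = 0.0407) and Rps27rt at -1.03 ± 0.25. On the CPM scale of edgeR (counts scaled to equal library totals with TMM factors), Rps27 stood at 1188.0, 1736.6, 2053.3 and 1918.0 in the positive and 3140.1, 3946.5, 4687.3 and 3188.9 in the negative samples, with no overlap. Rps9 stood at 2986.4, 2705.1, 3504.9 and 3908.3 against 5419.5, 5498.7, 5668.2 and 5632.6, with no overlap either (log2 fold change -0.76 ± 0.19, edgeR adjusted p = 0.0234). Rplp1 at -0.21, Rplp2 at -0.35 and the look-alikes Rps27l at 0.29 and Rpl3l at 0.66 did not pass.

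The lung count was not stable. Leaving out positive replicate 1, 2, 3 or 4 gave 2, 3, 6 or 27 members, and leaving out negative replicate 1, 2, 3 or 4 gave 2, 62, 1 or 2. The shares of all genes called in these fits are not given here, so the counts show only that the number of members moved. With library size alone edgeR called 1 member beside 3.24% of all genes, with a member median of -0.47 and an all-gene median of 0.22. The samples also differed in their classes. Alveolar macrophages were 44.6% ± 27.5 of the cells in positive samples and 0.284% ± 0.371 in negative ones, T cells 3.06% ± 2.80 and 20.0% ± 10.1, and B cells 2.30% ± 1.89 and 12.5% ± 7.74. Without B, T and NK cells 11 members were lower (5.91% of all genes), while the member median was -0.54 and Rps9 stood at -0.93, and the share of UMIs was 13.7% ± 1.49 against 15.6% ± 5.04. Without neutrophils 74 members were lower (13.8% of all genes), and the share was 17.4% ± 2.38 against 27.3% ± 1.45 with no overlap. Within monocytes alone the share was 21.1% ± 0.677 in positive and 23.0% ± 0.834 in negative lung samples, with no overlap (n = 4 each). The mix of clusters in this class differed as well. Pooled, the cluster led by Ace, Adgre4 and Cd300e was 50.9% of positive and 16.6% of negative monocytes, with shares of 17.4% and 20.7%. The cluster led by Saa3, Vcan and Apoc2 was 46.5% and 81.2%, with shares of 23.0% and 23.3%. Conventional dendritic cells gave 28.4% ± 3.56 and 28.9% ± 1.96 (n = 4 each). They overlapped between sorts, as did B cells at 32.6% and 35.4% and T cells at 31.2% and 35.7% (n = 3 positive and 4 negative samples).

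In IIA bone the family went up. The share of UMIs was 17.2%, 14.7%, 15.7%, 15.7%, 19.5% and 15.2% in the positive and 10.9%, 10.4%, 10.0%, 11.7%, 9.75% and 10.3% in the negative samples, with no overlap. By edgeR 76 of 85 members were higher (27.0% of all genes) and 2 lower (23.2%), with a member median of 0.44 beside 0.08. Rps2, a small subunit protein, had the second largest log2 fold change, 0.87 ± 0.08 (edgeR adjusted p = 1.01e-05), and Rpl14 the next, 0.76 ± 0.08. The largest, 2.04 ± 0.48, was that of Rpl39l, a sparse gene at 0.547 to 1.85 CPM in negative and 1.12 to 9.36 in positive samples, which overlapped. Rplp0 at 0.51, Rplp1 at 0.68, Rplp2 at 0.34, Rps6 at 0.51 and Rpsa at 0.44 all passed. Rps27a at 0.18 and Rps27 at -0.20 did not.

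The 2 members called lower in the IIA positive sort were Rpl3l and Rps9. Rpl3l stood at 2.59, 1.04, 3.0, 0.823, 0.998 and 0.481 CPM in positive and 4.7, 6.38, 6.05, 4.96, 7.13 and 3.83 in negative samples, with no overlap (log2 fold change -1.87 ± 0.38, edgeR adjusted p = 0.00153). Rps9 was at -0.22 ± 0.06 (edgeR adjusted p = 0.012) and at 0.02 with library size alone, under which the all-gene median was 0.32 and 81 members were higher (43.0% of all genes).

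The classes differed here too. Immature neutrophils were 43.5% ± 7.81 of the cells in negative IIA samples and 15.1% ± 7.21 in positive ones, and granulocyte precursors 1.70% ± 0.772 and 25.9% ± 19.8. Without immature and mature neutrophils the share of UMIs was 17.7% ± 0.626 in negative and 17.8% ± 1.67 in positive samples, so that a difference of 5.80 percentage points became 0.0415. Then 25 members were higher (17.0% of all genes) and 3 lower (14.3%), with a median of 0.12: Rps27 at -0.48, Rps27rt at -0.45 and Rps9 at -0.29 were the 3. Within immature neutrophils the share was 5.59% ± 0.650 in positive and 4.44% ± 0.178 in negative samples, higher in 6 of 6 numbers with overlapping ranges. The mix of clusters in this class also differed. Pooled, the cluster led by Orm1, Chil3 and Fcnb was 47.5% of positive and 32.0% of negative cells, with shares of 7.41% and 6.00%. In the other clusters the positive and negative shares were 3.22% and 3.15%, and 4.18% and 3.85%. Granulocyte precursors gave 18.4% ± 2.13 and 19.0% ± 1.54, which overlapped. This class joins both precursor clusters described above, whose shares differ, and their mix by sort was not tested.

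Intracardiac bone moved little on the same count: without neutrophils its share was 25.1% ± 2.41 in positive and 25.6% ± 0.744 in negative samples. Brain gave 20.9% ± 3.16 against 26.9% ± 0.687 with no overlap once neutrophils were left out. Several classes differed there. Macrophages were 35.1% ± 31.8 of all kept cells in positive brain samples and 4.01% ± 3.34 in negative ones. Microglia were 18.7% ± 19.9 and 0.453% ± 0.263, and monocytes 2.63% ± 1.52 and 15.9% ± 6.68. Liver gave 20.9% ± 6.52 against 26.6% ± 1.07 without neutrophils, with overlap. Brain macrophages themselves were at 16.2% ± 2.57 in positive and 23.2% ± 2.58 in negative samples, lower in 4 of 4 numbers though the ranges overlapped.

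**Figure D5:**
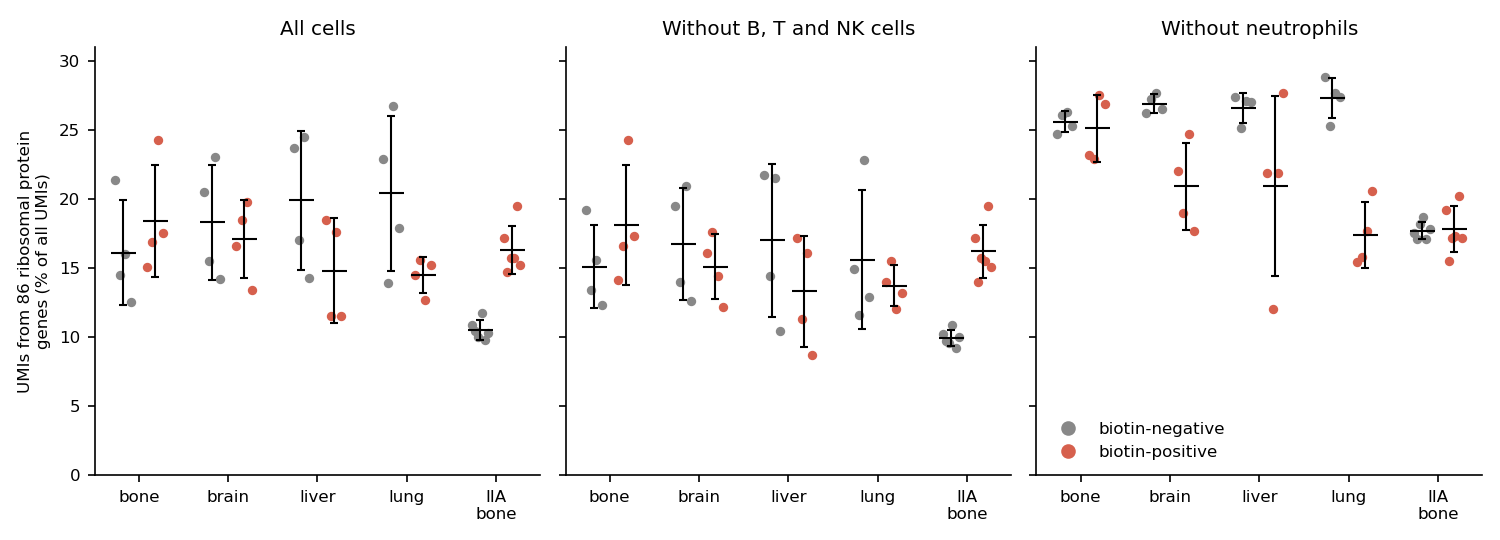
Share of UMIs from the 86 genes (y axis, %) in biotin positive and negative samples of 4 intracardiac tissues and IIA bone (x axis), for all cells, without B, T and NK cells, and without neutrophils; each point is a sample, and bars give the mean and SD. The IIA gap of 5.80 percentage points in all cells is 0.0415 without neutrophils, where the lung and brain samples no longer overlap between sorts.

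The other genes of translation were counted from lists. In IIA bone, where 27.0% of all genes were called higher and 23.2% lower, 34 of 38 ribosome biogenesis genes were higher in the positive sort and 0 lower, with a median log2 fold change of 0.77. Ncl, nucleolin, had 0.79 ± 0.14, Npm1, nucleophosmin, 0.74 ± 0.10, and Fbl, which methylates ribosomal RNA, 0.63 ± 0.14. Of 78 mitochondrial ribosomal protein genes 59 were higher and 3 lower, and of 17 translation factors with TOP mRNAs 12 were higher and 1 lower. Myc, a regulator of ribosome synthesis, rose by 1.23 ± 0.22 on the log2 scale. Of 16 cell cycle genes 4 were higher, a share near that of all genes, and Mki67 was at 0.03. In lung, where 11.5% of all genes were called higher and 6.80% lower, 1 of 38 biogenesis genes was higher and 0 lower, 5 of 78 mitochondrial ribosomal protein genes were higher and 1 lower, and 1 of 17 translation factors was lower and 0 higher. Of the cell cycle genes 8 of 16 were higher there and 0 lower.

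Between granulocyte precursors and mature neutrophils, 37 of 38 biogenesis genes were higher, beside 44.2% of all genes, with a median of 3.54 where that of the family was 2.34. Npm1 had 4.95 ± 0.12 and Nop58, a box C/D particle protein, 5.39 ± 0.23, while Polr1a, the largest subunit of RNA polymerase I, was lower at -1.77 ± 0.15. All 16 cell cycle genes tested were higher. Among ribosomal proteins outside the naming rule, Rack1 was higher at 2.92, and Fau was at -0.16 and did not pass.

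Mature neutrophils were last compared by sort and by tissue. The share was 3.43% ± 0.250 in positive and 3.55% ± 0.425 in negative bone samples, 3.56% and 3.45% in brain, 3.89% and 3.86% in liver, 3.92% and 4.00% in lung, and 3.87% ± 0.507 and 3.68% ± 0.364 in IIA bone; all 5 pairs of ranges overlapped. EdgeR called 0 members in each of the 5 comparisons of sorts (80 to 84 tested). At an unadjusted p under 0.05 there were 0 members in bone, brain and lung, 1 in liver and 5 in IIA bone, beside 1.61%, 1.61%, 0.863%, 1.73% and 23.1% of all genes in that order. In the IIA comparison 8.68% of all genes were called higher and 1.63% lower, and in the 4 intracardiac tissues 0%. In the IIA comparison DESeq2 called 1 member, higher, beside 9.94% of all genes. These counts do not show that the sorts are equal. In IIA bone the cluster led by Acod1, Cxcl2 and Hcar2 was 55.5% of positive and 5.57% of negative mature neutrophils, pooled over samples.

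Between tissues, negative samples only, edgeR called 0 of 84 members in brain, liver or lung against bone mature neutrophils. All genes were called higher and lower in 0.0529% and 0% for brain, 3.75% and 1.25% for liver, and 9.43% and 9.51% for lung. At an unadjusted p under 0.05 there were 0, 1 and 8 members, beside 5.82%, 22.3% and 33.5% of all genes, and DESeq2 called 0, 1 and 2, all higher, beside 0.793%, 5.10% and 9.76% of all genes. For lung, samples of the same number deviated together in every pair; with the replicate number as a block, 7 members were higher in lung (16.6% of all genes) and 5 lower (16.7%). Rps27 at 0.55 (edgeR adjusted p = 0.00138), Rpl41 at 0.39 and Rps9 at 0.30 were among the higher. Rpl3l at -0.57 (edgeR adjusted p = 0.0269), Rpl10a at -0.52 and Rps19 at -0.48 were among the lower. Rpl3l stood at 12.3, 15.6, 8.44 and 9.73 CPM in lung and 18.4, 22.4, 21.7 and 13.4 in bone mature neutrophils, which overlapped. The clusters within this class also differed between tissues. Pooled over negative samples, the cluster led by Stfa3, Cstdc5 and Stfa2 was 70.9% in bone and 5.03% in lung. That led by Ccrl2, Hcar2 and Il1b was 2.44% and 42.1%, and that led by Wfdc17, Rdh12 and Cstdc4 7.11% and 51.4%. Tissue and cluster mix therefore cannot be told apart here.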

How the data were processed

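The deposited tables hold raw UMI counts per gene and cell barcode, made by the authors with Cell Ranger, per the submitters' processing notes, which also name Seurat and the build mm10. The file headers give cellranger 6.1.2 and 7.1.0; other settings are not given in the sources. Every per-sample column was used. Cells were kept from 500 UMIs and 200 genes upward, unless over 15% of their counts were mitochondrial. Cells of the IIA library were assigned to the hashtag with at least 10 UMIs and 3 times the next. Hashtags were tied to sorts and samples through the authors' deposited tag table, by number alone because the prefixes differ, and this match is an assumption. Classes came from Leiden clustering in scanpy 1.11.5 and were named from marker genes. Doublets were kept, and leaving out the top 5% of doublet scores was an alternative. Free RNA was not removed.

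Counts were summed per sample and class with at least 10 cells. Genes passing filterByExpr were tested with edgeR 4.0.16 (quasi-likelihood, TMM, Benjamini-Hochberg over all genes tested, threshold 0.05) in R 4.3.3. DESeq2 1.42.0 was an alternative. Class comparisons had the sample as a block, and sort and tissue comparisons had none. Same-numbered samples deviated together, with every pair's correlation over 0.1, in all cells of bone, brain and liver, in mature neutrophils of the 4 intracardiac tissues, and for liver and lung against bone. They did not in all cells of lung, in IIA bone, or for brain against bone. The tests were also tried on simulated counts. With the lung design, 8 of 97 genes changed by 1 on the log2 scale were called, and 64 of 98 changed by 2. With the IIA design these were 62 of 97 and 87 of 96. Many real changes of this size can thus go uncalled with the lung design.

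The members and gene lists were chosen with earlier results of these data known. Named in each comparison are up to 3 members called in each direction with the largest fold change, the paralogs with their partners, the stalk genes, Rps6, Rpsa and Rps27a. Members named otherwise, such as Rps9 and Rpl37 for their share of the pool, were chosen after their values were seen.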

Additional observations from a re-analysis of the deposited data

Results flagged for a closer look

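Within the negative lung samples, the member share of mature neutrophils had a lowest sample of 3.29%, against 4.18% to 4.33% in the other 3. Its gap to the nearest sample was 0.856 of the whole range (n = 4), past the limit used for a lone sample. It was the 1 sample marked among 72 groups tested, where chance marks about 1 in 20.

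The member share in all cells went opposite ways between positive and negative samples of the same number. It was 5.80 percentage points higher in the positive sort of IIA bone (higher in 6 of 6 numbers) and differed by -5.10 points in liver (lower in 4 of 4). In monocytes the group means differed by 1.41 points in IIA bone (3 positive and 6 negative samples, higher in 3 of 3 shared numbers). They differed by -1.09 points in liver (3 and 4 samples, lower in 3 of 3) and -1.88 points in lung (4 each, lower in 4 of 4). These differences between series and tissues were not tested. In lung the mix of monocyte clusters also differed between the sorts, as given above.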

How the results depend on the processing

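Counts below are members called by edgeR unless DESeq2 is named. Where neither this part nor the text above gives a share of all genes, a count shows only how the number of members moved. Library size alone, the IIA samples in place of the intracardiac ones, and leaving out lymphocytes or neutrophils were chosen after seeing the data. In lung the 44 members lower became 1 with library size alone, 12 without the low-count filter, 11 without B, T and NK cells, 74 without neutrophils and 1 to 62 without 1 sample; DESeq2 gave 66 (10.7% of all genes lower). With the replicate block it was 37 (8.29%). In IIA bone the 76 higher became 25 without neutrophils (72 with the replicate block, 71 to 78 without 1 sample). The 2 lower became 1 with library size alone or no low-count filter and 2 to 3 without 1 sample. In brain the 0 lower became 7 by DESeq2, 2 without neutrophils (1.91% of all genes lower) and 0 to 1 without 1 sample. The blocked fits called 0 members in bone, brain and liver. The 1 member lower in B cells became 2 without the low-count filter, 0 in the IIA samples and 0 to 1 without 1 replicate, and T cells gave the same counts. In monocytes the 1 lower became 0 with library size alone. In granulocyte precursors the 2 lower became 1 with library size alone and 0 in the IIA samples, and in immature neutrophils the 5 lower became 8 there. In mature neutrophils, 0 higher became 1 by DESeq2 and 0 to 1 without 1 sample in IIA bone, and the same for liver against bone. For lung against bone 0 higher became 2 by DESeq2, 1 with RLE scaling, 1 with library size alone, 7 with the replicate block and 0 to 1 without 1 sample, and 0 lower became 5 with the block. The block changed no other call of a count.

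Signs turned for Rps9 in IIA bone (0.02) and granulocyte precursors (0.32) and Rpl7l1 in T cells (0.76) with library size alone. They also turned for Rpl10 (-0.09), Rpl22 (-0.04) and Rpl39 (-0.03) in IIA bone without neutrophils, and in the IIA samples for Rps27a in B cells (-0.03) and Rplp1 (-0.11) and Rps27a (-0.16) in immature neutrophils. Rpl12, named outside the rule, also turned there, from 2.23 to -0.24. The share difference in IIA bone, 5.80 points, was 2.53 as a mean over cells and 0.0415 without neutrophils; in brain it was -6.07 without neutrophils. Beyond what these fits are built from, the cause was not tested. Depth limits the sparse members, such as Rpl3l, Rpl39l and Rpl10l.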

Other observations

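Some classes with few samples entered no comparison. In the IIA positive samples osteoclasts, the cells that resorb bone, gave 19.2% ± 2.01 (n = 2). B cell precursors of the IIA negative samples gave 21.0% ± 3.13 (n = 4), with 0.653% of their UMIs from the 38 ribosome biogenesis genes.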
